A study of Mus musculus with 6 samples.

Results

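The 40 genes described here encode proteins of the acrosome and of the sperm surface that meets the egg. They were chosen by symbol, and a probe set counted for a gene where the array's annotation gave that symbol alone. When a gene had several such probe sets, the one with the highest mean over the 6 arrays stood for it. All 40 had a probe set and all 40 were tested, among 14477 genes tested and 18193 genes named on the array. The study measured total RNA of whole testes from mice of 3 inbred strains, MRL/MpJ (MRL/MpJ-+/+ in the series' design), AKR/N and C57BL/6, with 2 mice and 2 arrays per strain. All mice were 8 weeks old, and no treatment, transgene or engineered allele is named for any group. Arrays are called by strain and replicate number, such as MRL/MpJ 1.

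The acrosome is a cap-shaped vesicle that round spermatids build from the Golgi apparatus over the nucleus, and its contents are released when the sperm reaches the egg. Proteases and hyaluronidases open the cell and matrix coats around the egg, zona-binding proteins hold the sperm there, and membrane proteins such as IZUMO1 bring about fusion. Chaperones in the endoplasmic reticulum of the germ cell are needed for ADAM proteins to reach the sperm surface in mice. Most of these genes are transcribed after meiosis, so their level in a whole testis depends on how many spermatids it holds as well as on each spermatid's RNA. In RNA from whole testes, fewer cells of a type and less RNA per cell cannot be told apart.

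Promoter sequences are shown first, because 7 of the genes share a short element within the last 100 bases before the transcription start. RefSeq promoters of the mouse assembly GRCm38.p6 held 37 windows for 31 of the 40 genes, and the 250 bases before each start were searched on both strands. The cyclic AMP response element TGACGTCA is the site through which the factor CREM is known to activate genes of mouse spermatids. It lay in the window of 1 of the 31, Izumo1, or 3.23%, against 1.77% of all 27025 genes with a promoter in the table. Its shortened form TGACGT, which the full element contains, lay in 3 of the 31 (Acrbp, Izumo1 and Lyzl4), or 9.68%, against 7.29% of all genes. The octamer TGATGTCA differs from the full element in its middle and was searched only after the sequences had been read. It lay in 7 of the 31, or 22.6%, against 3.41% of all genes. In 6 of these, or 19.4%, the whole octamer lay within the last 50 bases before the start, against 1.0% of all genes. Because the octamer was picked from these same windows, its excess over all genes is a description and not a test. The motif GTTGCC, one arm of the X-box bound by RFX factors, lay in 7 of the 31, or 22.6%, against 11.8% of all genes. Those 7 were Acrbp, Actl7b, Calr3, Pick1, Prss21, Spaca6 and Spesp1. A match is a description of letters in the window and shows no binding.

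The last 100 bases before the start are given here for the 7 genes with the octamer and for Izumo1, 5′ to 3′ on the strand of the gene. Capitals mark TGATGTCA or TGACGTCA, or on the opposite strand TGACATCA. Among them Spaca7, Lyzl6, Spam1, Actl7a and Actl7b passed the F test over the 3 strains described below. So did 13 of all 40 genes (32.5%) and 15.1% of all probe sets tested. Whether the octamer goes with the differences between strains was not tested.
Spaca7: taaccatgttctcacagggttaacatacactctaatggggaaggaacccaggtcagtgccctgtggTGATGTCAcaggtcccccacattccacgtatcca
Lyzl6: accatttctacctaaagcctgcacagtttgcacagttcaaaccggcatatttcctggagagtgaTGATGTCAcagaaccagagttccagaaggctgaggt
Spam1: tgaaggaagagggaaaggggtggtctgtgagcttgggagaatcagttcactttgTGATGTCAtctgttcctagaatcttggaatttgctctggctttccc
Hyal5: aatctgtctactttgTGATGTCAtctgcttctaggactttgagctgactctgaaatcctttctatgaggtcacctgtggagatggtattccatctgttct
Actl7a: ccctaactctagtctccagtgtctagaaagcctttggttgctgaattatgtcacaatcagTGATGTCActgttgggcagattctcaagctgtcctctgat
Actl7b: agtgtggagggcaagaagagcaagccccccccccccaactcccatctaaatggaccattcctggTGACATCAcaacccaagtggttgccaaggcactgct
Cylc1: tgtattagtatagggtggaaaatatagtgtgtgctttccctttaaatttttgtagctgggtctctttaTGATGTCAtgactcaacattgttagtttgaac
Izumo1: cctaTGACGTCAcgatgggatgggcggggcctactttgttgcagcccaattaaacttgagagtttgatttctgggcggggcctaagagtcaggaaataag
In GRCm38.p6 these stretches lie at chr8:12572936-12573035 on the plus strand for Spaca7, chr11:103638891-103638990 on the minus strand for Lyzl6, chr6:24791088-24791187 on the plus strand for Spam1, chr6:24857897-24857996 on the plus strand for Hyal5. The others lie at chr4:56743322-56743421 on the plus strand for Actl7a, chr4:56741426-56741525 on the minus strand for Actl7b, chrX:111110318-111110417 on the plus strand for Cylc1 and chr7:45621711-45621810 on the plus strand for Izumo1. The element began 34 bases before the start in Spaca7, 36 bases before the start in Lyzl6, 46 bases before the start in Spam1 and 40 in Actl7a. It began 36 bases before the start in Actl7b, 32 in Cylc1, 85 in Hyal5 and 96 in Izumo1. Spam1 and Hyal5 are neighbours on chromosome 6 with 0 protein-coding genes between them in RefSeq order, as are Actl7a and Actl7b on chromosome 4. Adam18, Adam3 and Adam5 follow each other in the same way on chromosome 8. Promoters of the remaining 9 genes were not analysed here.

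Values are linear intensities, in the arbitrary units of the deposited scaling. Each array had a trimmed mean of 125.001, with a median intensity of 28.02 to 30.71. Most of the 40 genes were far brighter than that: 33 had a mean of at least 500 over the 6 arrays and 7 had less. The lowest mean was 62.1 for Cylc1, the highest 5600 for Crisp2, and the median of the 40 means was 1096. Epididymis markers, which would show tissue from outside the testis, had 9 genes with a probe set and 0 tested. Their highest single value was 117.8, for Lcn5 on AKR/N 1, against 1.61 to 14.9 on the other 5 arrays. Adam7 was likewise high on AKR/N 1 alone, at 63.5 against 0.616 to 13.1. Crisp4 (14.9) and Spint4 (3.07) were also highest there but dim. Lcn8 (3.36), Lcn9 (10.7), Cst11 (6.12), Adam28 (4.34) and Pate4 (1.23) were not highest there. Rnase10, best known from the epididymis in mice but not in this list, read 12.5 on AKR/N 1 and 68.8 and 78 in C57BL/6. Without AKR/N 1 the median difference of the 40 genes was -0.13 in MRL/MpJ against AKR/N and 0.011 in AKR/N against C57BL/6, and 2 and 0 of the 40 were called there. The part of such tissue in the values of any strain was not tested. Arrays of the same strain correlated at 0.979 to 0.985 over all probe sets except controls, and arrays of different strains at 0.967 to 0.979. These are Pearson's r across probe sets, which are not independent replicates.

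Over the 40 genes, MRL/MpJ testes stood apart on the low side. Both MRL/MpJ arrays lay below the other 4 arrays for 20 of the 40 genes, or 50%, against 11.7% of all 29692 probe sets tested and 22.5% of the 3792 with a mean of at least 500. That brightness class was set after the data had been seen, because the 40 genes are brighter than most. The 40 genes were themselves chosen with earlier results of these data known, so their excess over these shares is not independent support. Both MRL/MpJ arrays lay above the other 4 for 4 genes, Adam2, Ly6k, Spata16 and Gopc, or 10%, against 13.3% of all probe sets tested and 15.4% of the bright class. The counts for AKR/N were 2 below (5.0%, against 12.6% of all and 16.1% of the bright class) and 5 above (12.5%, against 11.6% and 19.2%). Those for C57BL/6 were 1 below (2.5%, against 14.9% and 15.2%) and 6 above (15%, against 13.5% and 17.7%). The lowest of the 6 values stood on MRL/MpJ 1 for 14 genes and on MRL/MpJ 2 for 12. The highest stood on C57BL/6 1 for 14 genes and on C57BL/6 2 for 8.

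**Figure D1:**
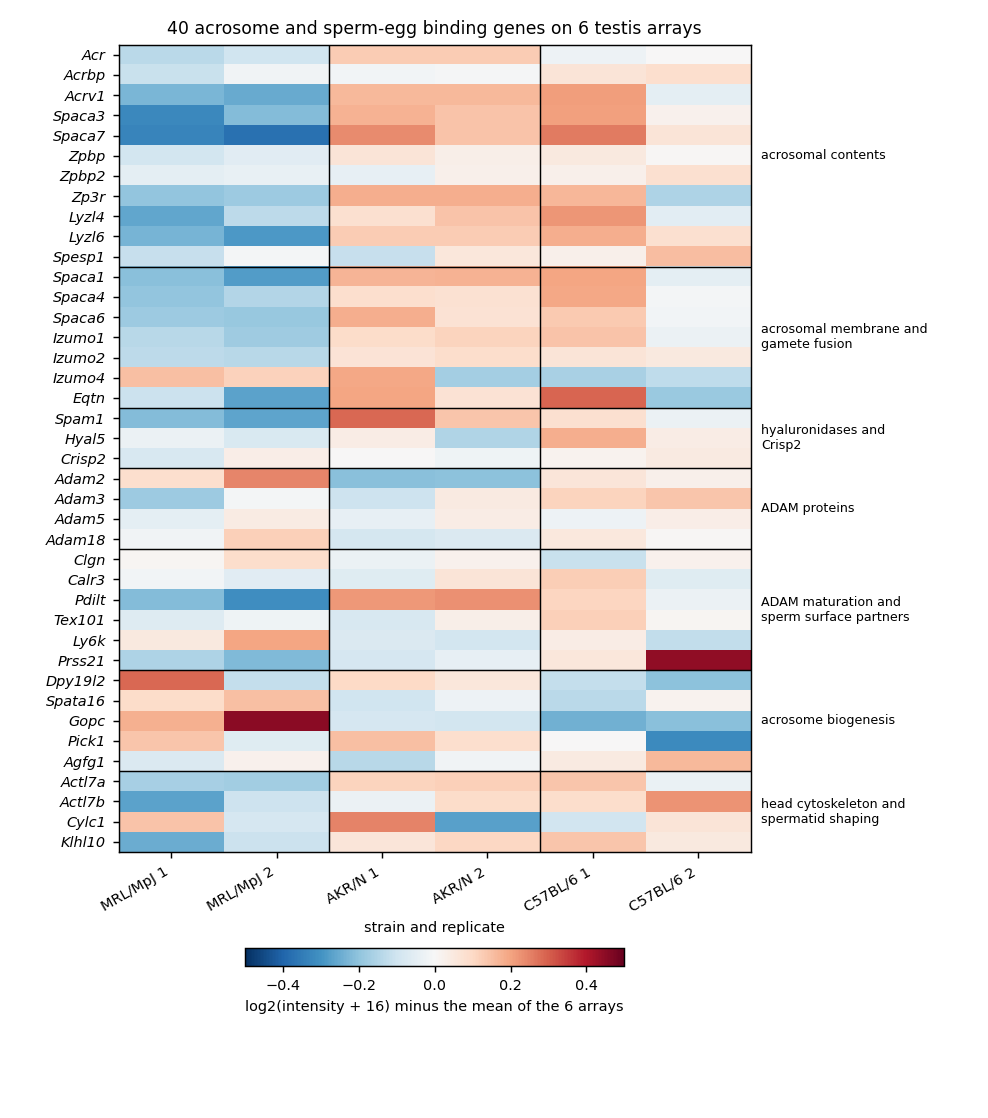
Level of each of the 40 genes (rows, grouped by role) on each of the 6 arrays (columns), as log2(intensity + 16) minus the gene's mean over the arrays; blue is below the mean and red above. Both MRL/MpJ columns are the lowest for 20 genes, most of them in the upper blocks, while the blocks of ADAM proteins and of acrosome biogenesis do not share this.

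Strains were compared on log2(intensity + 16) in 1 linear model over the 6 arrays, and a difference was called at an adjusted p under 0.05 over all probe sets tested. Differences of dim genes are understated on this scale. In MRL/MpJ against C57BL/6, 10 of the 40 genes were called, 1 higher and 9 lower, which is 25%, against 10% of all probe sets tested and 19.6% of the bright class. For the lower calls alone it was 22.5%, against 4.95% of all probe sets tested and 11.5% of the bright class, and for the higher call 2.5%, against 5.07%. In MRL/MpJ against AKR/N, 12 were called, 1 higher and 11 lower, which is 30%, against 6.91% of all and 17.9% of the bright class. Lower calls made up 27.5% there, against 3.69% of all and 11.1% of the bright class, and the higher call 2.5%, against 3.22%. In AKR/N against C57BL/6, 1 gene was called, lower in AKR/N, which is 2.5%, against 9.97% of all and 17.7% of the bright class (for lower calls alone, 4.88% and 8.18%; for higher ones 0, against 5.09%). At an unadjusted p under 0.05 the counts were 19, 22 and 4 in these 3 comparisons. The F test over the 3 strains called 13 of the 40, or 32.5%, against 15.1% of all. Arrays of the paired strains did not overlap for 26 lower and 5 higher genes in MRL/MpJ against C57BL/6 (24.7% and 27.5% of all probe sets tested). The counts were 21 lower and 5 higher in MRL/MpJ against AKR/N (23.7% and 26.9%), and 9 lower and 8 higher in AKR/N against C57BL/6 (26.2% and 26.2%). The 3 comparisons share arrays, so their values are given side by side and not counted as separate evidence.

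Median differences of the 40 genes were small. They were -0.16 in MRL/MpJ against C57BL/6 (0.01 over all probe sets tested, -0.02 over the bright class) and -0.10 in MRL/MpJ against AKR/N (0.02 and -0.02). In AKR/N against C57BL/6 the median was 0.011 (-0.003 and 0.001). Of the 40 differences, 30 were negative and 10 positive in MRL/MpJ against C57BL/6, 29 and 11 in MRL/MpJ against AKR/N, and 19 and 21 in AKR/N against C57BL/6. The spread between mice of a strain had a median SD on the log2 scale of 0.052 in MRL/MpJ, 0.031 in AKR/N and 0.096 in C57BL/6, where it was widest. C57BL/6 1 was above C57BL/6 2 for 25 of the 40 genes, and leaving out C57BL/6 1 or C57BL/6 2 ended some of the calls described for each gene.

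**Figure D2:**
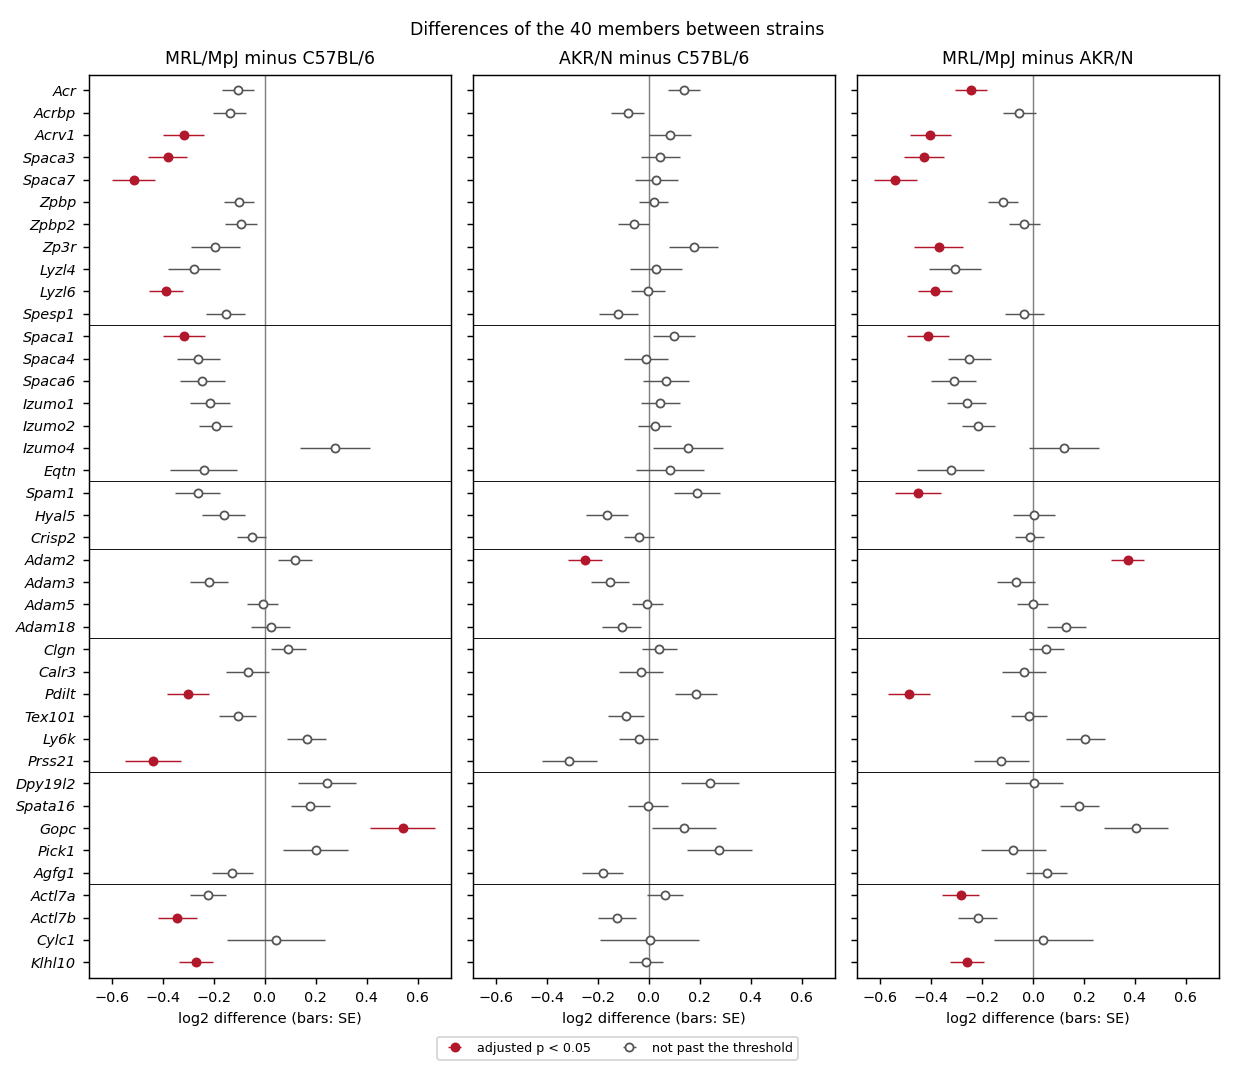
Difference of each of the 40 genes between strains in the 3 comparisons, as log2 with its standard error (bars); filled red points passed an adjusted p under 0.05. In both panels with MRL/MpJ most points lie left of 0, with 10 and 12 called, while in the AKR/N minus C57BL/6 panel the points lie on both sides and 1, Adam2, is called.

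Genes for the soluble and matrix contents of the acrosome held the highest number of calls, in the largest of the role groups. All 11 had a negative difference in MRL/MpJ against both other strains. The median was -0.20 against C57BL/6, where 4 of 11 were lower, and -0.31 against AKR/N, where 6 of 11 were lower. Lower calls made up 36.4% and 54.5% of the group, against 4.95% and 3.69% of all probe sets tested and 11.5% and 11.1% of the bright class, and these background shares apply to each role group that follows. In AKR/N against C57BL/6, 0 of 11 were called by limma, 0 had an unadjusted p under 0.05, and the median was 0.03.

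Spaca7, an acrosomal protein known in mice to be released in the acrosome reaction and to help disperse the cumulus, had the largest negative differences of the 40. Its intensities were 588 and 571 in MRL/MpJ, 879.8 and 824 in AKR/N, and 894 and 779.5 in C57BL/6. Both MRL/MpJ values were far below the other 4, and the AKR/N and C57BL/6 values overlapped. The log2 difference was -0.51 ± 0.084 (SE, adjusted p = 0.00326) against C57BL/6 and -0.54 ± 0.084 (SE, adjusted p = 0.00372) against AKR/N, which is 1.43-fold and 1.46-fold lower on the log2(intensity + 16) scale. Spaca3, a lysozyme-like acrosomal protein, read 1019 and 1096 in MRL/MpJ, 1443 and 1410 in AKR/N, and 1474 and 1296 in C57BL/6. The MRL/MpJ arrays were again below all others, with -0.38 ± 0.078 (SE, adjusted p = 0.0111) against C57BL/6 and -0.43 ± 0.078 (SE, adjusted p = 0.00889) against AKR/N. Lyzl6, another lysozyme-like protein of sperm, read 1180 and 1136 in MRL/MpJ, 1517 and 1518 in AKR/N, and 1577 and 1468 in C57BL/6. MRL/MpJ was lower than both other strains with no overlap, with -0.39 ± 0.067 (SE, adjusted p = 0.00438) against C57BL/6 and -0.39 ± 0.067 (SE, adjusted p = 0.00691) against AKR/N. For Acrv1, the acrosomal matrix protein SP-10, the intensities were 1672 and 1643 in MRL/MpJ, 2198 and 2194 in AKR/N, and 2267 and 1894 in C57BL/6. C57BL/6 2 lay between the MRL/MpJ and AKR/N values, and MRL/MpJ was still below all 4. The gene was lower in MRL/MpJ, with -0.32 ± 0.082 (SE, adjusted p = 0.0319) against C57BL/6 (-0.19 without C57BL/6 1) and -0.40 ± 0.082 (SE, adjusted p = 0.0147) against AKR/N. The Acrv1 call against C57BL/6 ended without any 1 of MRL/MpJ 1, MRL/MpJ 2, AKR/N 1, AKR/N 2 and C57BL/6 1 (adjusted p between 0.0575 and 0.157). The Spaca3 call against C57BL/6 ended without MRL/MpJ 1 (adjusted p = 0.0886) or C57BL/6 1 (adjusted p = 0.0711). The Acrv1 call against AKR/N ended without any 1 of MRL/MpJ 1, MRL/MpJ 2, AKR/N 1 and AKR/N 2 (adjusted p between 0.0683 and 0.103). The Spaca3 call against AKR/N ended without MRL/MpJ 1 (adjusted p = 0.0736), AKR/N 1 (adjusted p = 0.0744) or AKR/N 2 (adjusted p = 0.0634). The Lyzl6 call against AKR/N ended without MRL/MpJ 2 (adjusted p = 0.0599), AKR/N 1 (adjusted p = 0.0566) or AKR/N 2 (adjusted p = 0.0645). The calls of Spaca7 in both comparisons and of Lyzl6 against C57BL/6 held without any 1 array. Over the 16 alternative settings, the adjusted p of the calls of these 4 genes ranged from 0.00116 to 0.215.

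Acr, which encodes acrosin, the serine protease of the acrosome, separated all 3 strains. Its intensities were 1323 and 1355 in MRL/MpJ, 1588 and 1589 in AKR/N, and 1429 and 1456 in C57BL/6. The order was MRL/MpJ, then C57BL/6, then AKR/N, and no arrays of different strains overlapped. Only the outer pair passed the test: -0.24 ± 0.062 (SE, adjusted p = 0.0425) in MRL/MpJ against AKR/N, while MRL/MpJ against C57BL/6 gave -0.11 ± 0.062 (SE, adjusted p = 0.336) and AKR/N against C57BL/6 gave 0.14 ± 0.062 (SE, adjusted p = 0.211). Zp3r, the matrix protein sp56 that binds the zona pellucida in mice, read 813 and 821 in MRL/MpJ, 1059 and 1061 in AKR/N, and 1050 and 837 in C57BL/6. Both MRL/MpJ values lay below the rest, but C57BL/6 2 was almost as low while C57BL/6 1 reached the AKR/N level. The gene was lower in MRL/MpJ than in AKR/N, with -0.37 ± 0.097 (SE, adjusted p = 0.0463). The Acr call ended without any 1 of MRL/MpJ 1, MRL/MpJ 2, AKR/N 1 and AKR/N 2 (adjusted p between 0.134 and 0.211). The Zp3r call ended without any 1 of MRL/MpJ 1, MRL/MpJ 2, AKR/N 1 and AKR/N 2 (adjusted p between 0.165 and 0.208). Over the 16 alternatives the adjusted p ranged from 0.0257 to 0.286 for Acr and from 0.0118 to 0.258 for Zp3r.

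The bright zona-binding and equatorial segment genes differed less. Zpbp, which shapes the acrosome and binds the zona, read 2492 and 2555 in MRL/MpJ, 2776 and 2708 in AKR/N, and 2749 and 2667 in C57BL/6. MRL/MpJ was below the other strains on both arrays, with differences of -0.10 ± 0.058 (SE, adjusted p = 0.327) against C57BL/6 and -0.12 ± 0.058 (SE, adjusted p = 0.289) against AKR/N, which did not pass. Its relative Zpbp2 read 1897 and 1909 in MRL/MpJ, 1905 and 1993 in AKR/N, and 1994 and 2071 in C57BL/6. The C57BL/6 values were the highest and the other strains overlapped, with -0.09 ± 0.062 (SE, adjusted p = 0.397) in MRL/MpJ against C57BL/6. Spesp1, a protein of the equatorial segment, read 2670 and 2877 in MRL/MpJ, 2674 and 3011 in AKR/N, and 2950 and 3225 in C57BL/6. Both MRL/MpJ values were below both C57BL/6 values, AKR/N overlapped both strains, and MRL/MpJ against C57BL/6 gave -0.15 ± 0.076 (SE, adjusted p = 0.251). Acrbp, the partner that holds proacrosin during packaging, lay between 1423 and 1630 on its brightest probe set, with both MRL/MpJ arrays lowest and both C57BL/6 arrays highest. Lyzl4 lay between 399 and 563, with both MRL/MpJ arrays lowest. Neither passed the test, at -0.14 and -0.28 in MRL/MpJ against C57BL/6 (adjusted p = 0.223 and 0.12).

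**Figure D3:**
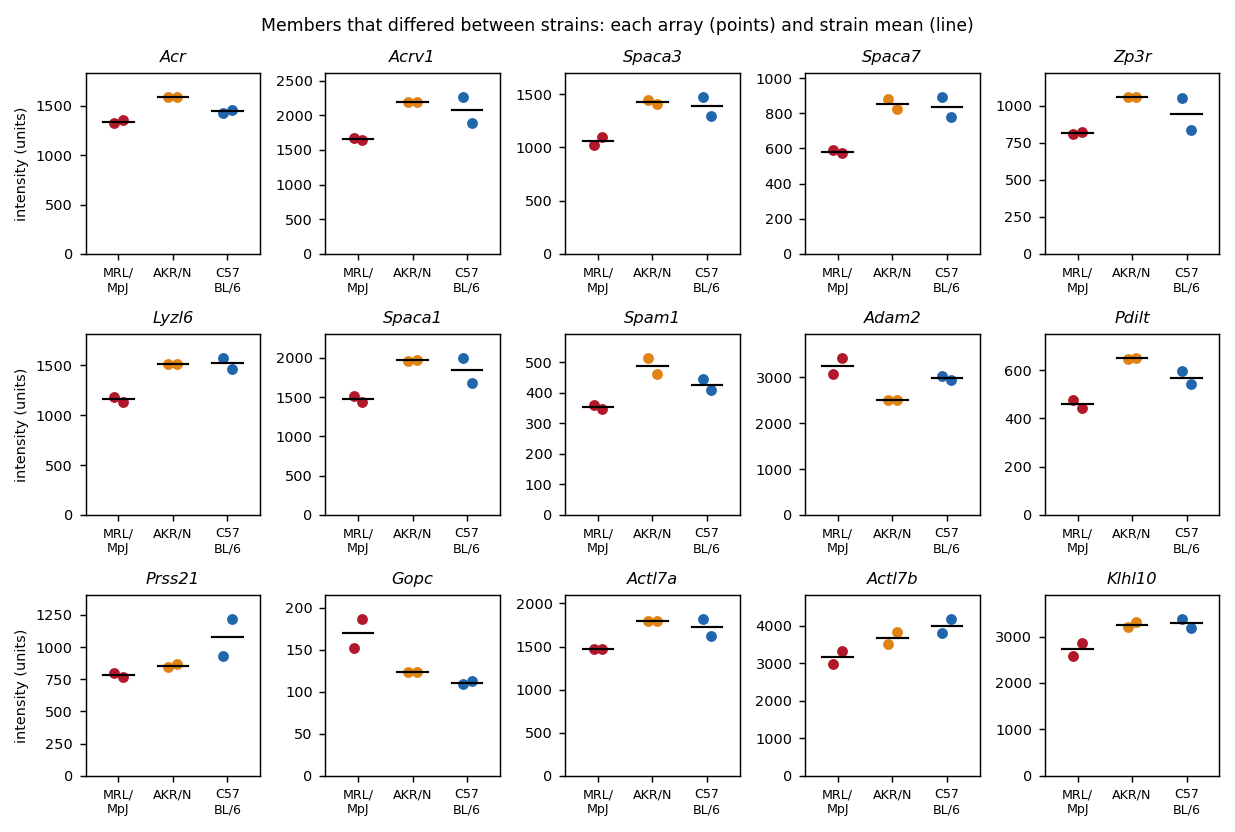
Intensity (linear axis from 0, arbitrary units) of the 15 genes called in at least 1 pairwise comparison, with each array as a point and the strain mean as a line. MRL/MpJ points are the lowest for 13 of them and the highest for Adam2 and Gopc.

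Genes of the acrosomal membrane and of gamete fusion numbered 7, and 6 of them had negative differences in MRL/MpJ against each of the other strains. The medians were -0.24 against C57BL/6 and -0.26 against AKR/N, with 1 of 7 lower in each comparison. That gene was Spaca1, an inner acrosomal membrane protein needed in mice for acrosome shape. Its intensities were 1508 and 1435 in MRL/MpJ, 1963 and 1968 in AKR/N, and 2001 and 1684 in C57BL/6. MRL/MpJ was below all other arrays, and C57BL/6 2 was nearer to MRL/MpJ than C57BL/6 1. It was lower in MRL/MpJ, with -0.32 ± 0.082 (SE, adjusted p = 0.0343) against C57BL/6 (-0.19 without C57BL/6 1) and -0.41 ± 0.082 (SE, adjusted p = 0.0132) against AKR/N. The Spaca1 call against C57BL/6 ended without any 1 of MRL/MpJ 1, MRL/MpJ 2, AKR/N 1, AKR/N 2 and C57BL/6 1 (adjusted p between 0.0607 and 0.17). The Spaca1 call against AKR/N ended without MRL/MpJ 2 (adjusted p = 0.0938), AKR/N 1 (adjusted p = 0.0843) or AKR/N 2 (adjusted p = 0.0982). Across those alternatives, the adjusted p of both calls ranged from 0.00426 to 0.217.

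Izumo1, which binds the egg receptor JUNO, ranged from 795 to 997, and Spaca6, also required for fusion in mice, from 340 to 445. Izumo2 ranged from 1005 to 1182 and the GPI-anchored Spaca4 from 541 to 713. For all 4 genes both MRL/MpJ arrays were below the other 4, and none passed the test. Their differences were between -0.26 and -0.19 against C57BL/6 and between -0.31 and -0.21 against AKR/N. The smallest adjusted p of these was 0.0671, for Spaca6 against AKR/N. Eqtn, which encodes equatorin, spread from 620 to 918 and had, on the log2 scale, the largest SD between the C57BL/6 mice. Izumo4, dim at 110 to 146, was the single gene of the group with positive differences in MRL/MpJ, of 0.28 against C57BL/6 and 0.12 against AKR/N, and did not pass.

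Spam1, the PH-20 hyaluronidase of the sperm surface, read 358 and 346 in MRL/MpJ, 515 and 462 in AKR/N, and 443 and 410.1 in C57BL/6. The strains were ordered MRL/MpJ, C57BL/6, AKR/N without overlap. MRL/MpJ was lower than AKR/N, with -0.45 ± 0.089 (SE, adjusted p = 0.0130), and -0.26 ± 0.089 (SE, adjusted p = 0.0931) in MRL/MpJ against C57BL/6 did not pass. The Spam1 call ended without MRL/MpJ 1 (adjusted p = 0.0619), MRL/MpJ 2 (adjusted p = 0.0925) or AKR/N 1 (adjusted p = 0.118). The adjusted p of the difference from AKR/N, over the alternatives, ranged from 0.00695 to 0.141. Its neighbour Hyal5, another sperm hyaluronidase, ranged from 969 to 1222 with both C57BL/6 arrays highest and was not called. Crisp2, a cysteine-rich protein of acrosome and tail and the brightest of the 40, read 5299 and 5735 in MRL/MpJ, 5610 and 5520 in AKR/N, and 5667 and 5767 in C57BL/6. MRL/MpJ overlapped both other strains and AKR/N was just below C57BL/6, and its differences were -0.05 in MRL/MpJ and -0.04 in AKR/N against C57BL/6.

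ADAM proteins of the sperm surface did not follow the pattern of the acrosomal contents. Of the 4, 0 were called in MRL/MpJ against C57BL/6 by limma, with 1 at an unadjusted p under 0.05, and the median was 0.01. Adam2, which encodes fertilin beta, read 3074 and 3433 in MRL/MpJ, 2507 and 2511 in AKR/N, and 3026 and 2955 in C57BL/6. AKR/N was lowest on both arrays with nearly equal values, and MRL/MpJ was highest. Adam2 was lower in AKR/N than in C57BL/6, with -0.25 ± 0.066 (SE, adjusted p = 0.0373), and higher in MRL/MpJ than in AKR/N, with 0.37 ± 0.066 (SE, adjusted p = 0.00776). MRL/MpJ against C57BL/6 gave 0.12 ± 0.066 (SE, adjusted p = 0.306), with 0.04 without MRL/MpJ 2 and 0.20 without MRL/MpJ 1. The Adam2 call of AKR/N against C57BL/6 ended without any 1 of AKR/N 1, AKR/N 2, C57BL/6 1 and C57BL/6 2 (adjusted p between 0.115 and 0.171). The Adam2 call against AKR/N ended without MRL/MpJ 2 (adjusted p = 0.0666), AKR/N 1 (adjusted p = 0.0638) or AKR/N 2 (adjusted p = 0.0707). Over the 16 alternatives the adjusted p of the AKR/N and C57BL/6 difference ranged from 0.0187 to 0.259, and that of the MRL/MpJ and AKR/N difference from 0.00121 to 0.186.

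Adam3, needed in mice for sperm to bind the zona and pass into the oviduct, read 2914 and 3289 in MRL/MpJ, 3079 and 3416 in AKR/N, and 3571 and 3642 in C57BL/6. C57BL/6 was highest and the other strains overlapped, with -0.22 ± 0.074 (SE, adjusted p = 0.0943) in MRL/MpJ against C57BL/6. Adam5 read 3755 and 3999 in MRL/MpJ, 3771 and 3986 in AKR/N, and 3815 and 3979 in C57BL/6. All 3 strains covered the same range, with -0.01 in MRL/MpJ and -0.01 in AKR/N against C57BL/6. Adam18 ranged from 687 to 795 with both AKR/N arrays lowest and was not called.

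Among the 6 chaperones and surface partners of the ADAM proteins, 2 were lower in MRL/MpJ than in C57BL/6 and 1 was lower than in AKR/N. Pdilt, the testis chaperone that works with calsperin on ADAM3, read 474 and 443 in MRL/MpJ, 646 and 652 in AKR/N, and 598 and 541 in C57BL/6. MRL/MpJ was lowest, C57BL/6 in between and AKR/N highest, with no overlap. MRL/MpJ was lower, with -0.30 ± 0.083 (SE, adjusted p = 0.0436) against C57BL/6 and -0.49 ± 0.083 (SE, adjusted p = 0.00598) against AKR/N, while AKR/N against C57BL/6 gave 0.18 ± 0.083 (SE, adjusted p = 0.203). Prss21, which encodes the GPI-anchored protease testisin, read 802 and 765 in MRL/MpJ, 844 and 868 in AKR/N, and 931 and 1222 in C57BL/6. The C57BL/6 mice differed widely from each other, and both MRL/MpJ values were still below the rest. MRL/MpJ against C57BL/6 gave -0.44 ± 0.11 (SE, adjusted p = 0.0284), and without C57BL/6 2 the difference was -0.245. The Pdilt call against C57BL/6 ended without any 1 of MRL/MpJ 1, MRL/MpJ 2, AKR/N 1, AKR/N 2, C57BL/6 1 and C57BL/6 2 (adjusted p between 0.0512 and 0.218). The Pdilt call against AKR/N ended without MRL/MpJ 2 (adjusted p = 0.0604) or AKR/N 2 (adjusted p = 0.0587). The Prss21 call ended without MRL/MpJ 1 (adjusted p = 0.0929), MRL/MpJ 2 (adjusted p = 0.139) or C57BL/6 2 (adjusted p = 0.137). Over the 16 alternatives the adjusted p of these 3 calls ranged from 0.00306 to 0.218.

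The other 4 of this group were not called on their brightest probe set. Clgn, the chaperone calmegin, ranged from 1789 to 2055, and Calr3, calsperin, from 711 to 811. Tex101, a germ cell surface protein needed for ADAM3 in mice, ranged from 1294 to 1487. Its partner Ly6k ranged from 1472 to 1838, and both MRL/MpJ arrays were above the other 4, with 0.20 ± 0.077 (SE, adjusted p = 0.156) in MRL/MpJ against AKR/N.

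The 5 genes grouped here under acrosome biogenesis had mostly positive differences. Spaca1 and Zpbp, which also shape the acrosome but were placed in other groups, had negative ones in MRL/MpJ. In MRL/MpJ against C57BL/6, 4 of the 5 had positive differences, as did 15426 of all 29692 probe sets tested, and the median was 0.20. The gene called higher there made up 20%, against 5.07% of all probe sets tested. Gopc, a Golgi protein without which mice make round-headed sperm, read 152 and 187 in MRL/MpJ, 124 and 123 in AKR/N, and 109.5 and 112 in C57BL/6. MRL/MpJ 2 was the highest, MRL/MpJ 1 the next, and C57BL/6 the lowest. The difference was 0.54 ± 0.13 (SE, adjusted p = 0.0214) against C57BL/6 and 0.40 ± 0.13 (SE, adjusted p = 0.0887) against AKR/N, and the first passed. The Gopc call ended without MRL/MpJ 2 (adjusted p = 0.171), C57BL/6 1 (adjusted p = 0.0752) or C57BL/6 2 (adjusted p = 0.0704). With the mean of all its probe sets in place of the brightest, it was 0.37 (adjusted p = 0.0547), and over the 16 alternatives the adjusted p ranged from 0.0159 to 0.171. The brightest probe set of Gopc is of a type that can match related transcripts, and so are those of Clgn and Spaca6.

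Spata16, a Golgi protein of spermatids, ranged from 878 to 1074 with both MRL/MpJ arrays highest. Dpy19l2, which anchors the acrosome to the nuclear envelope, read 1012 on MRL/MpJ 1 and between 716 and 888 on the other 5 arrays. Pick1, a vesicle trafficking partner of GOPC, ranged from 165 to 235, with C57BL/6 2 lowest. Agfg1, needed in mice for vesicles to dock and fuse into the acrosome, ranged from 714 to 883 with both C57BL/6 arrays highest. None of these 4 passed the test in any comparison.

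The last group, of head cytoskeleton and spermatid shaping, numbered 4. Its medians were -0.25 in MRL/MpJ against C57BL/6 and -0.24 against AKR/N, with 2 of 4 lower in each. Klhl10, a ubiquitin ligase adaptor needed for spermatid maturation in mice, read 2590 and 2854 in MRL/MpJ, 3207 and 3309 in AKR/N, and 3390 and 3181 in C57BL/6. MRL/MpJ was below the other 4 arrays, and the difference was -0.27 ± 0.067 (SE, adjusted p = 0.0278) against C57BL/6 and -0.26 ± 0.067 (SE, adjusted p = 0.0443) against AKR/N. Actl7b, an actin-like protein of spermatids, read 2973 and 3331 in MRL/MpJ, 3511 and 3820 in AKR/N, and 3811 and 4189 in C57BL/6. MRL/MpJ was lowest and C57BL/6 2 highest, with -0.34 ± 0.076 (SE, adjusted p = 0.0169) against C57BL/6 and -0.22 ± 0.076 (SE, adjusted p = 0.128) against AKR/N, of which the first passed. Its neighbour Actl7a, an actin-like protein of the acrosome's inner side, read 1474 and 1466 in MRL/MpJ, 1791 and 1798 in AKR/N, and 1825 and 1619 in C57BL/6. MRL/MpJ was again lowest, with -0.28 ± 0.071 (SE, adjusted p = 0.0381) against AKR/N, which passed, and -0.22 ± 0.071 (SE, adjusted p = 0.0755) against C57BL/6, which did not. The difference from C57BL/6 was -0.14 without C57BL/6 1 and passed, at -0.31, without C57BL/6 2 (adjusted p = 0.0427). The Klhl10 call against C57BL/6 ended without any 1 of MRL/MpJ 1, AKR/N 1, AKR/N 2, C57BL/6 1 and C57BL/6 2 (adjusted p between 0.0523 and 0.179). The Klhl10 call against AKR/N ended without any 1 of MRL/MpJ 1, MRL/MpJ 2, AKR/N 1, AKR/N 2 and C57BL/6 1 (adjusted p between 0.0502 and 0.257). The Actl7b call ended without MRL/MpJ 1 (adjusted p = 0.124) or C57BL/6 2 (adjusted p = 0.12). The Actl7a call ended without any 1 of MRL/MpJ 1, MRL/MpJ 2, AKR/N 1 and AKR/N 2 (adjusted p between 0.139 and 0.197). Over the 16 alternatives the adjusted p of these 4 calls ranged from 0.00100 to 0.309. Cylc1, a cytoskeletal protein of the sperm head, was the dimmest gene at 48.2 to 76.1 and its strains overlapped.

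Further probe sets gave a second reading for part of the genes. There were 25 on 16 genes, and 22 on 14 genes were tested. The sign matched that of the brightest probe set for 17 of 22 in MRL/MpJ against C57BL/6, for 17 in MRL/MpJ against AKR/N and for 11 in AKR/N against C57BL/6. Where the gene itself had been called, the further sets had the same sign in 6 of 6 cases against C57BL/6 and in 4 of 4 against AKR/N. Among these, a set of Lyzl6 was itself called, and those of Pdilt, Gopc and Spaca3 were not. In MRL/MpJ against C57BL/6, Pdilt gave -0.13 (adjusted p = 0.518), Gopc 0.20 and 0.38 (0.508 and 0.192) and the dim Spaca3 set -0.55 (0.172). Against AKR/N, Pdilt gave -0.37 (0.079) and Spaca3 -0.305 (0.523). With the mean of its probe sets, Pdilt against C57BL/6 was -0.217 (0.169). Of the further sets themselves, 7 (31.8%) were called in MRL/MpJ against C57BL/6, 1 (4.55%) in MRL/MpJ against AKR/N and 5 (22.7%) in AKR/N against C57BL/6. The shares of all probe sets tested were 10%, 6.91% and 9.97%.

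Some of these disagreed in size with the brightest set of the same gene, and a gene's probe sets cannot be ranked by level against each other. A further set of Acrbp averaged 457 in MRL/MpJ, 417 in AKR/N and 664 in C57BL/6, with -0.52 ± 0.076 (SE, adjusted p = 0.00162) in MRL/MpJ and -0.65 ± 0.076 (SE, adjusted p = 0.000376) in AKR/N against C57BL/6. A further set of Clgn averaged 821 in MRL/MpJ, 674 in AKR/N and 1042 in C57BL/6, with -0.34 ± 0.089 (SE, adjusted p = 0.0369) and -0.62 ± 0.089 (SE, adjusted p = 0.00147) in the same 2 comparisons. The brightest set gave -0.14 and -0.08 for Acrbp and 0.09 and 0.04 for Clgn, so the result for both genes depends on the probe set. Spesp1 had a further set at 255 in MRL/MpJ, 259 in AKR/N and 345 in C57BL/6, with -0.41 ± 0.11 (SE, adjusted p = 0.0329) in MRL/MpJ and -0.40 ± 0.11 (SE, adjusted p = 0.0397) in AKR/N against C57BL/6. Eqtn had one at 477 in MRL/MpJ, 545 in AKR/N and 666 in C57BL/6, with -0.47 ± 0.088 (SE, adjusted p = 0.00758) in MRL/MpJ against C57BL/6. Dim sets of Calr3 (17.8, 16.4 and 51.1 in MRL/MpJ, AKR/N and C57BL/6) and of Spata16 (92.2, 112 and 51.6) were called against C57BL/6 in both strains, Calr3 lower and Spata16 higher. 1 of the 2 further sets of Lyzl6 averaged 273 in MRL/MpJ, 371 in AKR/N and 348 in C57BL/6 and was lower in MRL/MpJ in both comparisons, like the brightest set. The other was not called, at -0.28 against C57BL/6 and -0.10 against AKR/N (adjusted p = 0.383 and 0.838). Why probe sets of a gene differ was not tested.

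**Figure D4:**
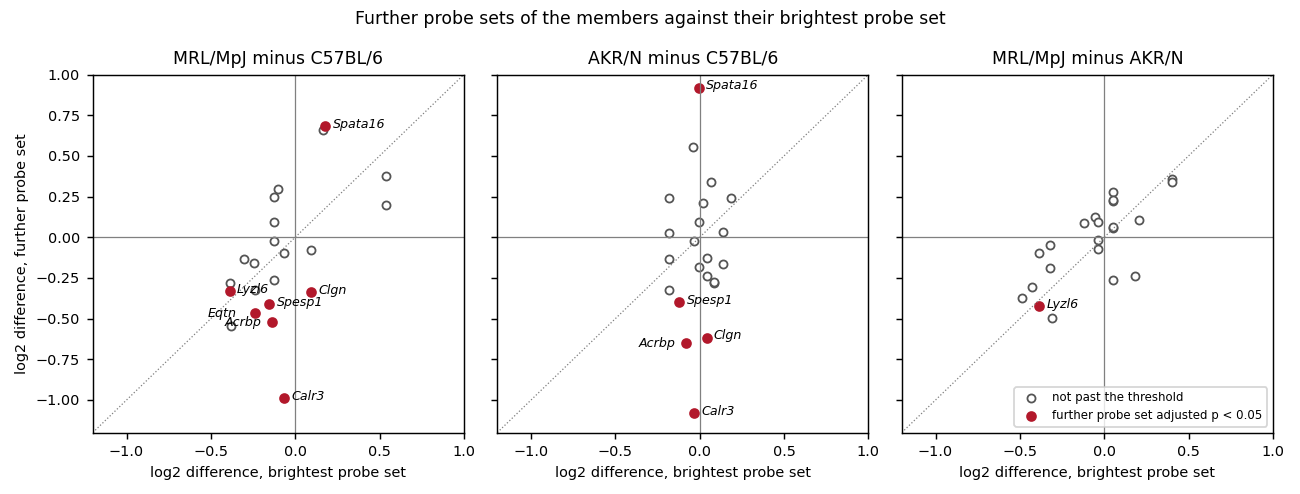
Each further tested probe set of the 40 genes (vertical axis, log2 difference) against the brightest probe set of the same gene (horizontal axis), in the 3 comparisons; red points passed an adjusted p under 0.05 and the dotted line marks equal differences. Against C57BL/6 the called sets of Acrbp, Clgn, Spesp1 and Calr3 lie well below the line in both strains and that of Spata16 above it, while in MRL/MpJ minus AKR/N the called set, of Lyzl6, lies close to it.

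Other genes of the acrosome and of gamete interaction, not among the 40, were taken from a list of 62, of which 54 were tested. In MRL/MpJ against C57BL/6, 0 were higher and 9 lower, or 16.7% called, with a median of -0.13. In MRL/MpJ against AKR/N, 0 were higher and 6 lower (11.1%), with a median of -0.09. In AKR/N against C57BL/6, 1 was higher and 5 lower (11.1%), with a median of -0.07. In the same order, 10%, 6.91% and 9.97% of all probe sets tested were called, and 19.6%, 17.9% and 17.7% of the bright class. Lower calls alone made up 16.7%, 11.1% and 9.26% of the list. They made up 4.95%, 3.69% and 4.88% of all, and 11.5%, 11.1% and 8.18% of the bright class. These background shares apply to each marker list that follows. Prss40, a testis serine protease, read 329 and 331 in MRL/MpJ, 527 and 488 in AKR/N, and 422 and 416 in C57BL/6. MRL/MpJ was lowest and AKR/N highest without overlap, and MRL/MpJ was lower with -0.60 ± 0.083 (SE, adjusted p = 0.00186) against AKR/N and -0.33 ± 0.083 (SE, adjusted p = 0.0300) against C57BL/6. Lyzl1, Prss39, Fam209, Llcfc1 and Spata46 were also lower in MRL/MpJ than in AKR/N, by log2 differences of -0.41, -0.29, -0.67, -0.31 and -0.25. Against C57BL/6, Spata46 (-0.38), Spaca9 (-0.28), Spag1 (-0.49), Stx2 (-0.61) and Adam32 (-0.27) were among the lower genes.

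Rnase10, which is best known from the epididymis in mice, was dim. It read 15.6 and 12.2 in MRL/MpJ, 12.5 and 4.84 in AKR/N, and 68.8 and 78 in C57BL/6, the C57BL/6 values being the highest. It was lower in MRL/MpJ (-1.58 ± 0.24, SE, adjusted p = 0.00222) and in AKR/N (-1.87 ± 0.24, SE, adjusted p = 0.000750) than in C57BL/6. Arsa (-0.31), Prss37 (-0.25), Dkkl1 (-0.30) and Spag1 (-0.40) were lower in AKR/N than in C57BL/6. Zan, which encodes zonadhesin, was dim and higher in AKR/N than in C57BL/6 (0.69 ± 0.18, SE, adjusted p = 0.0362).

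Some markers of spermatids outside the acrosome were lower in MRL/MpJ as well. Of 15 tested round spermatid genes, 0 were higher and 6 lower in MRL/MpJ against C57BL/6 (40% called, median -0.21), and 0 were higher and 5 lower against AKR/N (33.3%, median -0.21). In AKR/N against C57BL/6, 0 were called by limma, 4 had an unadjusted p under 0.05, and the median was 0.04. Sun5, a nuclear envelope protein of the head-to-tail coupling apparatus, read 481 and 518 in MRL/MpJ, 894 and 889 in AKR/N, and 896 and 840.1 in C57BL/6. Both MRL/MpJ values were far below the rest, with -0.78 ± 0.076 (SE, adjusted p = 0.000104) against C57BL/6 and -0.82 ± 0.076 (SE, adjusted p = 0.000109) against AKR/N. Tex36 (-0.40 and -0.54) was lower in both comparisons, as was the sperm channel gene Catsper3 (-0.43 and -0.55). The summed intensity of the 15 genes was 26670 and 28325 in MRL/MpJ, 31976 and 32226 in AKR/N, and 32071 and 30941 in C57BL/6. That of the 40 genes was 54915 and 57324 in MRL/MpJ, 59909 and 61090 in AKR/N, and 62502 and 61062 in C57BL/6. Both sums were lowest on the MRL/MpJ arrays without overlap, and the part of these spermatid markers in the result was not tested.

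Of 18 elongating spermatid genes, 0 were higher and 4 lower in MRL/MpJ against each of C57BL/6 (22.2%, median -0.15) and AKR/N (22.2%, median -0.16). In AKR/N against C57BL/6, 1 was higher and 1 lower (11.1%, median -0.03). Akap3, an anchoring protein of the flagellum's fibrous sheath, was lower than in C57BL/6 in MRL/MpJ (-0.67 ± 0.071, SE, adjusted p = 0.000186) and in AKR/N (-0.64 ± 0.071, SE, adjusted p = 0.000253), and Tekt2, a flagellar tektin, was lower in MRL/MpJ against C57BL/6 (-0.38) and AKR/N (-0.42). Summed intensities ran from 79169 to 86590 in MRL/MpJ, from 85601 to 90429 in AKR/N and from 90746 to 96554 in C57BL/6, so that MRL/MpJ and AKR/N overlapped.

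Earlier germ cells gave another picture. Of 20 spermatocyte genes, 4 were higher and 4 lower in MRL/MpJ against C57BL/6 (40%, median 0.01). Against AKR/N, 8 were higher and 1 lower in MRL/MpJ (45%, median 0.13). In AKR/N against C57BL/6, 2 were higher and 5 lower (35%, median -0.10). Psma8, the testis proteasome subunit, was higher in MRL/MpJ against C57BL/6 (0.77) and AKR/N (0.70). Summed spermatocyte intensities were 34941 and 36097 in MRL/MpJ, 33355 and 32468 in AKR/N, and 34395 and 35497 in C57BL/6, so that MRL/MpJ overlapped C57BL/6. Of 13 spermatogonia genes, 1 (7.69%) was higher in MRL/MpJ and 1 (7.69%) in AKR/N against C57BL/6, with medians of 0.15 and 0.20. Between MRL/MpJ and AKR/N, 0 were called by limma, with 4 at an unadjusted p under 0.05 and a median of -0.02.

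Among somatic markers, 4 of 6 Leydig cell genes (66.7%) were higher in MRL/MpJ than in C57BL/6 (median 0.70) and 4 of 6 (66.7%) in AKR/N (median 0.72). Between MRL/MpJ and AKR/N, 1 was higher and 1 lower (33.3%). The steroidogenic enzyme Hsd17b3 differed most, at 1.31 in MRL/MpJ and 1.42 in AKR/N against C57BL/6. Their summed intensity was 5663 and 5839 in MRL/MpJ, 5591 and 6092 in AKR/N, and 3553 and 3422 in C57BL/6, an order unlike that of the 40 genes. Of 15 Sertoli cell genes, 1 was higher in MRL/MpJ against C57BL/6 (6.67%, median 0.10). In AKR/N against C57BL/6, 3 were higher and 1 lower (26.7%, median 0.24). In MRL/MpJ against AKR/N, 1 was higher and 2 lower (20%), with 13 of the 15 differences negative and a median of -0.155. Of 10 macrophage genes, 1 (10%) was lower in MRL/MpJ in each of its comparisons, but not the same gene. It was the dim Cd14 against C57BL/6 (-1.26) and Aif1 against AKR/N (-0.41). The macrophage medians were -0.19 and -0.17, with 8 and 9 of the 10 differences negative. In AKR/N against C57BL/6 limma called 0, with 3 at an unadjusted p under 0.05. Their part in the differences of the 40 genes was not tested.

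**Figure D5:**
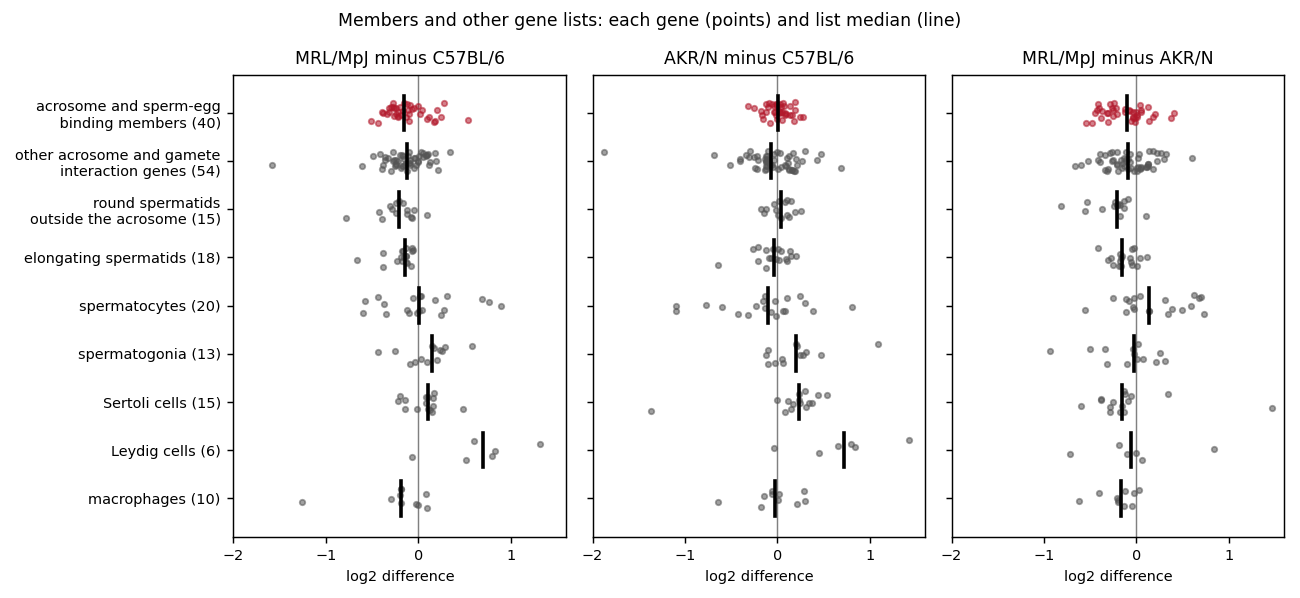
Log2 difference of each tested gene (points) and the median (black line) for the 40 genes, in red, and for the other lists, with the number tested in brackets, in the 3 comparisons. In both MRL/MpJ panels the median of the 40 genes lies left of 0, as do those of the other acrosome genes, the spermatid lists and the macrophages. In MRL/MpJ minus AKR/N those of spermatogonia, Sertoli cells and Leydig cells do too. In both panels against C57BL/6 the Leydig cell median lies at 0.70 or 0.72.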

How the data were processed

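Total RNA of whole testes was isolated with Trizol and, per the labels' protocols, amplified in one cycle and labelled with biotin for a GeneChip array. What the authors deposited is a linear intensity for each of 45101 probe sets on 6 arrays, and these show a trimmed mean of 125.001 on each (2% trimmed at each end). What software summarised the probes is not given in the sources used here. The number of arrays limits the precision. Gene names came from the platform annotation, where 34945 probe sets had 1 symbol, 932 had more than 1 and 9160 had none. The 64 control probe sets were left out.

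Intensities were transformed as log2(intensity + 16), and 29692 probe sets with at least 2 arrays above the 40th percentile of their array were tested. The model, in limma 3.58.1 (R 4.3.3), had the strain as its only term over the 6 arrays, with eBayes, a variance trend, and 7.58 prior and 3 residual degrees of freedom. The threshold was an adjusted p (Benjamini-Hochberg, over all probe sets tested) under 0.05. Strains were taken from the sample labels, and the series' design counts 2 mice per strain. Full values are given for each called gene and for the 6 brightest uncalled ones. Of the list of other acrosome genes at most 6 called genes per comparison are named, and of each marker list at most 3, by smallest adjusted p. The 40 genes, the lists and the tests were chosen with earlier results of these data known. On simulated data with 200 changed probe sets, 45% of log2 differences of 1 and 12% of those of 0.5 were recovered in MRL/MpJ against C57BL/6. In MRL/MpJ against AKR/N these shares were 45% and 13%. The changed probe sets were drawn from all 29692 at any brightness, and the data held more calls, 2975 and 2052 in these comparisons. The shares therefore do not give the recovery for the 40 genes. Promoters came from RefSeq (GRCm38.p6). The alternatives were other normalizations, filters, pseudocounts and probe set rules, no variance trend, a replicate block, only the arrays compared and each array left out in turn.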

Additional observations from a re-analysis of the deposited data

How the results depend on the processing

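None of the 23 called pairwise differences changed direction under the 16 alternatives, whereas uncalled differences near 0 between AKR/N and C57BL/6 did for some of the same genes (Acrv1 from -0.046 to 0.212 when 1 array was left out). All 23 pairwise calls were lost without the variance trend, where 0 genes were called by limma in any comparison and in the F test. At an unadjusted p under 0.05 there were then 10 in MRL/MpJ against C57BL/6, 13 in MRL/MpJ against AKR/N, 0 in AKR/N against C57BL/6 and 9 by the F test. The 10 calls in MRL/MpJ against C57BL/6 became 6 with median centring, 4 with no filter and 6 with only the arrays compared, and leaving out 1 array gave 3 to 10 (3 without MRL/MpJ 1, 4 without C57BL/6 1, 6 without MRL/MpJ 2 or either AKR/N array). The 12 in MRL/MpJ against AKR/N became 2 to 13 when 1 array was left out (5 without MRL/MpJ 1, 2 without MRL/MpJ 2 or either AKR/N array). The 1 in AKR/N against C57BL/6 became 4 with the mean of all probe sets. It became 0 with median centring (7 at an unadjusted p under 0.05) and with no filter (6), and 0 to 2 when 1 array was left out. The F test's 13 became 8 with no filter and 5 to 15 when 1 array was left out. Of the 23 calls, 19 were kept with quantile normalization, 14 with median centring, 12 with no filter, 22 with a pseudocount of 1 and all 23 with one of 64 or a filter at the 60th percentile. With the mean of probe sets or only the arrays compared, 19 were kept. The cause of these losses was not tested, but leaving out an array leaves a strain with 1 array, assumed to vary like the others. The median difference of the 40 genes stayed between -0.194 and -0.111 in MRL/MpJ against C57BL/6 and between -0.147 and -0.084 in MRL/MpJ against AKR/N. In AKR/N against C57BL/6 it lay between -0.044 and 0.054. Samples with the same replicate number deviated together little (r = 0.049, 0.043 and 0.047 across probe sets), and the numbers were not treated as pairs. Such a correlation over all probe sets tested does not settle whether same-numbered samples shared a batch. With the replicate block the counts were 12, 15 and 1, and 18 by the F test. Actl7a in MRL/MpJ against C57BL/6 then passed (adjusted p = 0.0444), and so did Actl7b in MRL/MpJ against AKR/N (0.0174). Other uncalled differences passed without 1 C57BL/6 array, those of Zp3r in MRL/MpJ against C57BL/6 (-0.36 without C57BL/6 2) and of Prss21 (-0.51) and Zp3r (0.34) in AKR/N against C57BL/6 without C57BL/6 1.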
